A study of Homo sapiens with 5 samples.

Results

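The mRNAs described here are those of the AP-1 family, namely FOS, FOSB, FOSL1, FOSL2, JUN, JUNB and JUND. They were chosen by name, and all 7 were found among the 56632 genes of the deposited tables and among the 11764 genes analysed, whose FPKM averaged 1 or more across the 5 libraries. FPKM counts fragments relative to transcript length and to the size of the library. The libraries came from MCF10A, a non-tumorigenic human breast epithelial cell line. The study's methods give its medium as containing horse serum, insulin, EGF, hydrocortisone and cholera toxin. The sample titles name no treatment. RNA immunoprecipitation (RIP) recovers the RNA that comes down with a protein, and the input is RNA from such cells before any pull-down. The groups were 1 input and 1 FLAG antibody RIP from MCF10A expressing FLAG-CBFB (the FLAG-CBFB input and RIP), and 1 input and 2 hnRNPK antibody RIP repeats from MCF10A without the tagged protein (parental). The study's methods describe FLAG-CBFB introduced by lentivirus into a CBFB knockout MCF10A line, with blasticidin selection of the transduced cells. The labels do not say whether the RIPseq cells were that line. No mock immunoprecipitation was analysed here.

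AP-1 is a dimeric transcription factor. A JUN protein pairs with a FOS protein, or with another JUN protein, through a leucine zipper, and a neighbouring basic region binds DNA. FOS and several relatives are immediate early genes, which growth factors such as EGF switch on within minutes through MAP kinases, and their mRNAs are short-lived. FRA1, the protein of FOSL1, is the AP-1 subunit most often linked to invasive growth and mesenchymal traits of breast epithelial cells. CBFB is best known as the partner of the RUNX transcription factors, and hnRNPK binds RNA with a preference for runs of C.

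The comparison asks which AP-1 mRNAs came down with CBFB and with hnRNPK. In FPKM, FOSL1 mRNA was far above its 6 relatives in all 3 RIP libraries. Relative to its input it was also the highest, though FOSB came closer to it with hnRNPK than with CBFB. FOSB mRNA was high in the hnRNPK RIP relative to the average gene. Its FPKM was 29.7 and 10.4 in the hnRNPK repeats, against 11.8 in their input. The other 5 mRNAs had a lower FPKM in every RIP than in its input. FOSL1 also belongs to the panel of transcripts that the study took from its list of bound transcripts for PCR, so its high level here is not independent of that choice.

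The C-rich stretches of 4 coding sequences are shown because hnRNPK prefers such sequence. FOSL1 and FOSB were the members highest in the hnRNPK RIP relative to the average gene. FOS and JUN had the lowest ratios of hnRNPK RIP to input in FPKM. Each line is the 30-base window of the coding sequence with the most C, in the transcript of GENCODE release 29 (GRCh38) with the longest coding sequence, read 5′ to 3′ along the mRNA. Capitals mark runs of 3 or more C.
FOSL1: caccagcagCCCaccagCCCCCtgccgCCC
FOSB: ctgccgCCCCCgccaccaccgCCCCtgCCC
FOS: gCCCCtcaCCCtttcggagtCCCCgCCCCC
JUN: ggcacatcaccaccacgccgaCCCCCaCCC

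The windows hold 19 C in FOSL1 (coding bases 564 to 593, counted from the first base of the start codon), 21 in FOSB (766 to 795), 18 in FOS (274 to 303) and 18 in JUN (257 to 286). Of 10531 coding sequences searched the same way, 16.6% had a window with at least 19 C, 4.60% one with at least 21 and 27.3% one with at least 18. Among the windows shown, those of FOSL1 and FOSB thus held 1 to 3 more C than those of FOS and JUN. The windows not shown held 17 C in JUNB, and 19 each in FOSL2 and JUND.

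FOSL1 lies at chr11:65892049-65900573 on the minus strand (GRCh38). Its FPKM was 22.1 in the FLAG-CBFB input and 309 in the matching RIP. It was 41.1 in the parental input, 208 in hnRNPK RIP repeat 1 and 228 in repeat 2. Every RIP value lay above both inputs, and FPKM was 13.97-fold higher with CBFB and 5.06-fold and 5.54-fold higher with hnRNPK. The expected counts behind these values were 3289, 38966, 4027, 29090 and 27744 in the same order, so counting error was small beside the changes.

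**Figure D1:**
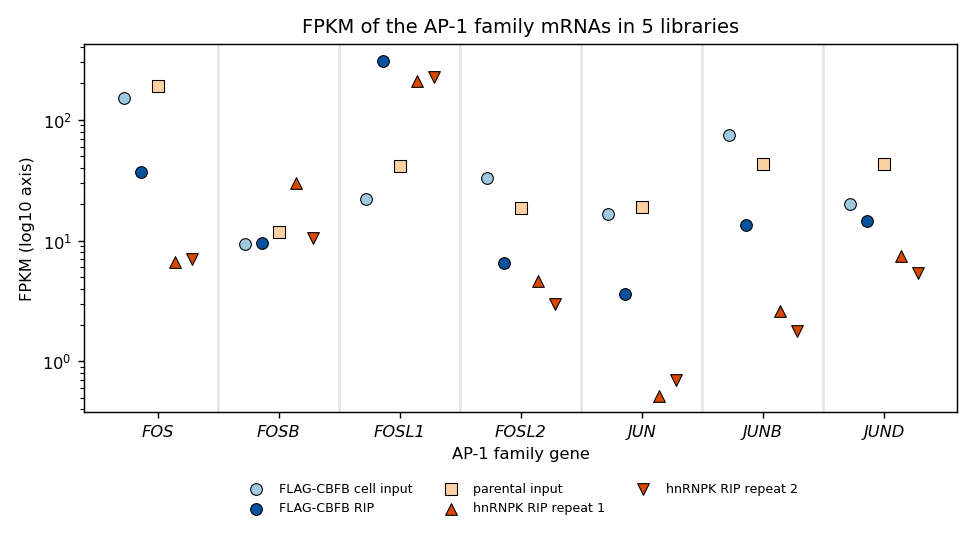
FPKM of each AP-1 family gene (x axis) in the 5 libraries, on a log10 y axis; each point is 1 library. FOSL1 alone has all 3 RIP libraries above both inputs, from 208 to 309 FPKM against 22.1 and 41.1.

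The RIP libraries were dominated by mitochondrial transcripts, which took between 62.2% and 86.6% of their counts against 4.27% and 11.2% in the inputs, out of 69786576 to 106855647 expected counts per library. The mean log2(FPKM + 1) of a RIP minus its input was -1.34 over the analysed genes with CBFB, and -2.61 and -2.68 in the hnRNPK repeats. Enrichment below is the log2(FPKM + 1) of a RIP minus that of its own input, centred on this mean, so 0 is the average gene and the threshold of 2 is 4-fold above it. The pseudocount of 1 understates the change of weak mRNAs. On this scale RUNX1, the study's central target, stood at 2.13 with CBFB and 3.09 ± 0.28 (SD, n = 2) with hnRNPK, and GAPDH stood at -0.18 and -2.69 ± 0.04. All 8 basal breast epithelial markers were detected in both inputs, with KRT14 the weakest, and the luminal, blood and fibroblast markers were at most 1.77 FPKM. CBFB mRNA was at 53.9 FPKM in the FLAG-CBFB input, against 32.2 in parental cells.

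With CBFB, 1 of the 7 members passed the threshold of 2, namely FOSL1, against 4.37% of all analysed genes. With hnRNPK, the mean of both repeats passed it for 2 of 7, FOSL1 and FOSB, against 8.2% of all analysed genes. FOSB lost this call without centring, at 0.55, and with all genes of the table in the centring, at 1.16. The FLAG-CBFB RIP and its input had 1 library each, so CBFB was not tested here, and the counts are descriptions.

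The enrichment of FOSL1 was 5.09 with CBFB, and 4.92 and 5.12 in the hnRNPK repeats (5.02 ± 0.14, SD, n = 2). It ranked 32 of the 11764 analysed genes with CBFB and 52 with hnRNPK. Its nearest relative in all 3 RIP libraries was FOSB. FOSL1 exceeded the median of its 6 relatives by 5.71 with CBFB and by 5.31 and 5.62 in the hnRNPK repeats (5.46 ± 0.22, SD, n = 2). This difference is taken between genes within a RIP and its own input, so it does not depend on the centring. It does depend on the input, and was 4.42 with CBFB and 6.39 with hnRNPK against the opposite input. Between the inputs, where nothing was precipitated, FOSL1 minus the median of its relatives was -0.62, from centred log2(FPKM + 1) of FLAG-CBFB cells minus parental cells of -0.84 for FOSL1 and -0.22 for the median.

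**Figure D2:**
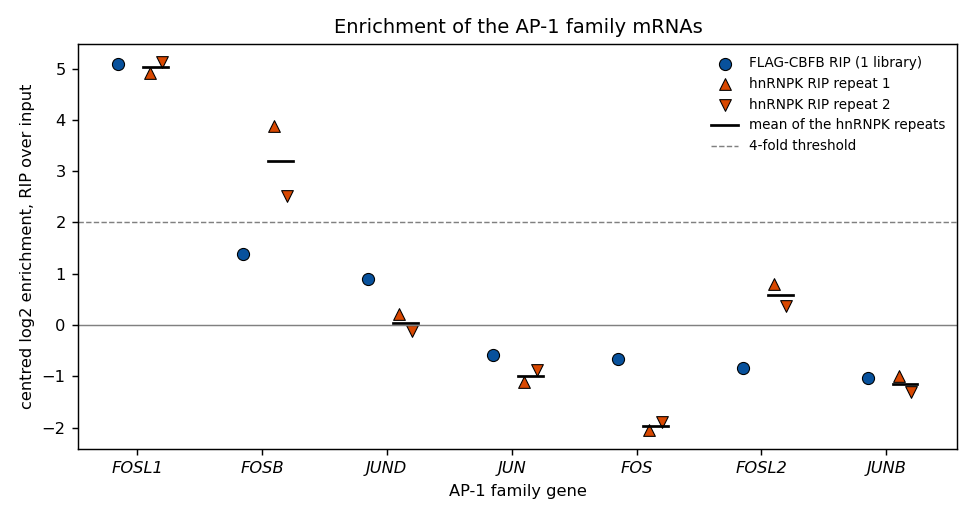
Centred log2 enrichment (y axis) of each AP-1 family gene (x axis, ordered by the FLAG-CBFB RIP); circles are the FLAG-CBFB RIP, triangles the 2 hnRNPK RIP repeats, short bars their mean, and the dashed line the 4-fold threshold. FOSL1 lies near 5 in all 3 libraries, and FOSB passes the threshold in both hnRNPK repeats but not with CBFB.

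Within the FOS subfamily, whose proteins need a JUN protein to bind DNA, the 4 mRNAs went different ways. FOS (chr14:75278774-75282230, plus strand), the founding immediate early member, was the highest family mRNA in both inputs, at 151 and 191 FPKM. Its FPKM was 37.0 with CBFB, and 6.59 and 7.08 with hnRNPK. These values are 4.10-fold lower with CBFB and 28.99-fold and 27.0-fold lower with hnRNPK. FOS was below the average gene in each RIP, with enrichments of -0.67 with CBFB and -1.97 ± 0.11 (SD, n = 2) with hnRNPK.

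FOSB (chr19:45467995-45475179, plus strand), which also encodes the stable truncated form known from chronic stimulation of neurons, was the lowest family mRNA in both inputs. Its FPKM was 9.34 in the FLAG-CBFB input and 9.62 in its RIP. It was 11.8 in the parental input, 29.7 in hnRNPK RIP repeat 1 and 10.4 in repeat 2. FOSB thus had 1.03 times its input in the FLAG-CBFB RIP, 0.885 times in hnRNPK repeat 2 and 2.52 times in repeat 1, where the average gene was lower than its input. Its enrichment was 1.38 with CBFB, and 3.88 and 2.52 in the hnRNPK repeats (3.20 ± 0.96, SD, n = 2). The repeats of FOSB lay 1.36 apart, and 0.612% of the analysed genes had a larger difference between the repeats. FOSB overlaps ERCC1 on the opposite strand, and whether the counting used strand is not given in the sources used here, so FOSB is uncertain where reads of the overlap were shared. ERCC1 itself had 50.7 FPKM in the parental input, against 2.64 and 2.40 with hnRNPK.

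FOSL2 (chr2:28392448-28417312, plus strand), which encodes FRA2 and has the longest mRNA of the family, had 32.8 FPKM in the FLAG-CBFB input and 6.49 in its RIP. Parental cells had 18.7 FPKM in the input, against 4.60 and 2.97 in the repeats of the hnRNPK RIP. Relative to the average gene, it was below 0 with CBFB, at -0.83, and above 0 with hnRNPK, at 0.79 and 0.37 (0.58 ± 0.30, SD, n = 2). With its own inputs FOSL2 thus differed in direction between the RIPs, which was not tested, but against the opposite inputs both values were below 0, at -0.03 with CBFB and -0.23 with hnRNPK. Its own inputs also differed, with 0.81 more in FLAG-CBFB cells on the centred log2 scale. An antisense gene that overlaps FOSL2, FLJ31356, had at most 0.03 FPKM in any library.

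The JUN mRNAs, whose proteins can pair with each other as well as with FOS proteins, were all lower in FPKM in the RIPs than in their inputs. JUN (chr1:58780788-58784327, minus strand), the main partner of FOS, had 16.6 FPKM in the FLAG-CBFB input and 3.63 in its RIP. Parental cells had 19.1 FPKM in the input, against 0.52 and 0.70 in the repeats of the hnRNPK RIP, where it was the lowest family mRNA. Its enrichment was -0.59 with CBFB and -0.997 ± 0.16 (SD, n = 2) with hnRNPK.

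JUNB (chr19:12791496-12793315, plus strand), often a weaker activator than JUN, had 74.3 FPKM in the FLAG-CBFB input and 13.5 in its RIP. Parental cells had 42.7 FPKM in the input, against 2.62 and 1.77 in the repeats of the hnRNPK RIP. Its enrichment of -1.03 was the lowest of the family with CBFB, and it was -1.14 ± 0.22 (SD, n = 2) with hnRNPK. JUNB overlaps HOOK2 on the opposite strand, which was likewise lower, with 20.1 FPKM in the parental input against 1.25 and 1.81.

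JUND (chr19:18279760-18281622, minus strand), which unlike its relatives is expressed at a steady level in many cells, had 20.2 FPKM in the FLAG-CBFB input and 14.7 in its RIP. Parental cells had 43.3 FPKM in the input, against 7.41 and 5.38 in the repeats of the hnRNPK RIP. JUND stood at 0.90 with CBFB and near the average gene with hnRNPK, at 0.21 and -0.12 (0.05 ± 0.23, SD, n = 2). Its FLAG-CBFB input minus its parental input was -1.03 on the same scale. Against the opposite input its enrichment with CBFB was -0.13, and its mean with hnRNPK was 1.08, so its place in both RIPs rests on the choice of input.

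The order of mean hnRNPK enrichment was FOSL1, FOSB, FOSL2, JUND, JUN, JUNB and FOS. FOSL1 was above FOSB by 1.05 in repeat 1 and 2.60 in repeat 2 (1.82 ± 1.10, SD, n = 2). JUN and JUNB changed places between the repeats, differing by -0.13 and 0.42, and could not be ordered on this scale. The other neighbours kept their order in both repeats. The order of FOS, JUN and JUNB also depended on the scale, and JUN, at 0.52 and 0.70 FPKM, lay under the pseudocount of 1. By the edgeR log2 fold changes given below, JUN was lowest at -1.17, then FOS at -0.91 and JUNB at -0.51. With CBFB, JUN, FOS, FOSL2 and JUNB lay between -0.59 and -1.03, and their order in single libraries has no replicate check.

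The composition of the family changed with the RIP, a measure that depends neither on the library total nor on the centring. FOSL1 made up 6.76% of the summed FPKM of the 7 genes in the FLAG-CBFB input and 78.4% in its RIP. The share was 11.2% in the parental input, 80.2% in hnRNPK repeat 1 and 88.9% in repeat 2. FOS went the other way, from 46.3% and 52.0% in the inputs to 9.39% with CBFB and 2.54% and 2.76% with hnRNPK. The 3 JUN mRNAs together made up 34.0% and 28.6% of the inputs, 8.09% of the FLAG-CBFB RIP and 4.06% and 3.07% of the hnRNPK repeats. FOSB took 11.4% of hnRNPK repeat 1 and 4.07% of repeat 2, which is most of the gap between the repeats.

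**Figure D3:**
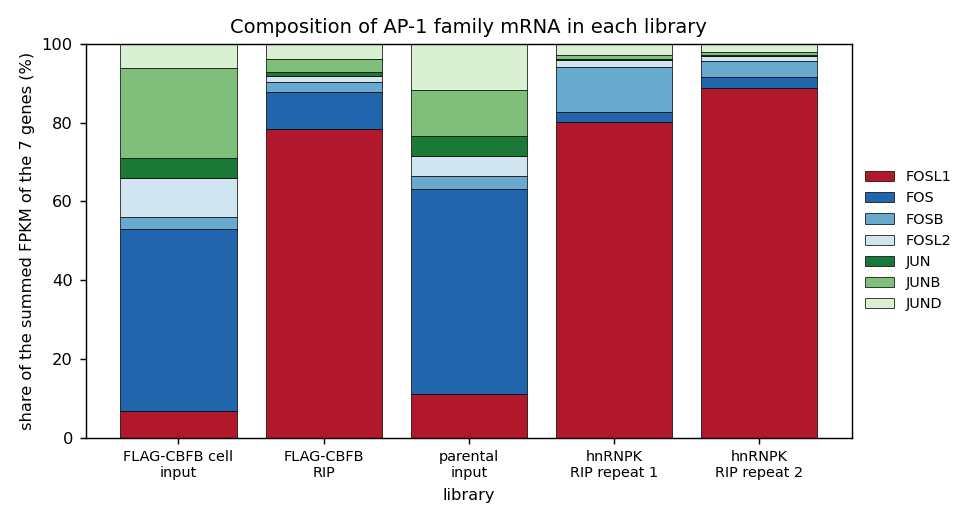
Share of the summed FPKM of the 7 AP-1 family genes (y axis, percent) taken by each gene in each library (x axis). FOSL1 goes from 6.76% and 11.2% in the inputs to between 78.4% and 88.9% in the RIP libraries. That rise by itself lowers the shares of the other genes, among them FOS, at 46.3% and 52.0% in the inputs.

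By expected counts, which also weigh longer mRNAs more, FOSL1 made up 4.64% (95% Wilson interval 4.48% to 4.79%) of the 70960 family counts in the FLAG-CBFB input. It made up 70.9% (70.5% to 71.2%) of 54991 counts in its RIP. It held 8.95% (8.68% to 9.21%) of 45019 counts in the parental input, 66.5% (66.1% to 66.98%) of 43717 in hnRNPK repeat 1 and 82.2% (81.8% to 82.6%) of 33741 in repeat 2. The intervals cover counting error only, and the repeats differed by far more than their intervals.

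The hnRNPK RIP could be tested, with 2 repeats against 1 parental input, by edgeR's quasi-likelihood test on the expected counts over 16639 genes. By this test, with a Benjamini-Hochberg adjusted p under 0.05, 21.9% of the genes tested were higher in the RIP and 15.8% lower. Of the 7 members, 4 were higher and 2 lower. FOSL1 rose by a log2 fold change of 6.14 ± 0.45 (SE; edgeR adjusted p = 9.26e-40), and FOSB by 4.48 ± 0.43 (edgeR adjusted p = 7.65e-24). FOSL2 rose by 1.53 ± 0.38 (edgeR adjusted p = 0.000273) and JUND by 0.99 ± 0.37 (edgeR adjusted p = 0.0234). FOS fell by 0.91 ± 0.34 on the log2 scale (edgeR adjusted p = 0.0230) and JUN fell by 1.17 ± 0.36 (edgeR adjusted p = 0.00418). JUNB was at -0.51 ± 0.35 (edgeR adjusted p = 0.256) and did not pass.

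These fold changes are relative to a TMM scale that lay a median 0.36 above the centred FPKM scale over 11681 shared genes, and 0.75 above it for mRNAs of at least 20 FPKM in the parental input. FOSL2 and JUND, higher here, had lower FPKM in both repeats than in the input, and limma on centred log2(FPKM + 1) called neither, with adjusted p of 0.0988 and 0.884. DESeq2 called neither FOS (adjusted p = 0.0811) nor JUN (adjusted p = 0.0571). FOSL1 and FOSB were called higher by all these tools. Without repeat 1 the edgeR log2 fold change of FOSB was 3.57 and without repeat 2 it was 5.03, values with no test. The labels do not say whether the repeats came from separate cultures, and with 1 input the p-values measure no spread between inputs. The fit had 1 residual degree of freedom and drew its spread from all genes together, so the wide spread of FOSB between the repeats did not enter its SE.

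**Figure D4:**
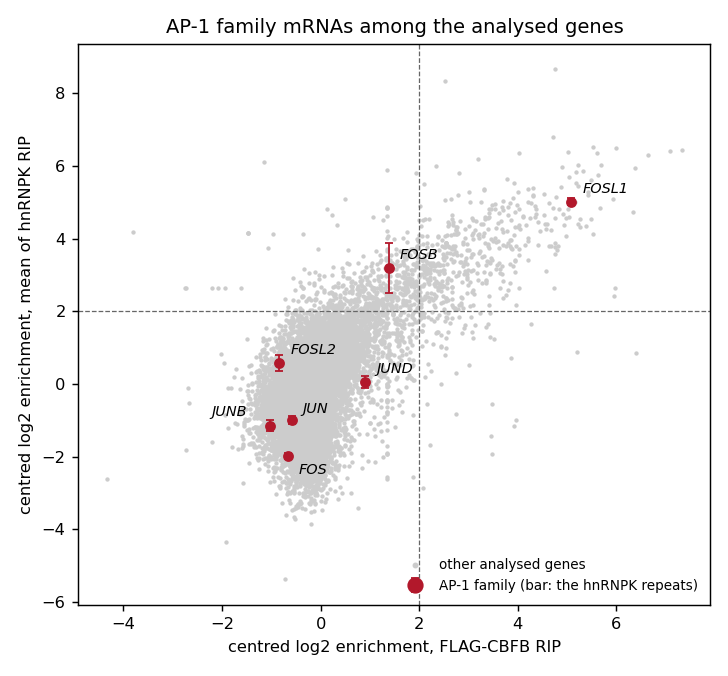
Centred log2 enrichment in the FLAG-CBFB RIP (x axis) and mean over the hnRNPK RIP repeats (y axis) for the 11764 analysed genes (grey) and the 7 AP-1 family genes (red; vertical bars span the 2 hnRNPK repeats). Dashed lines mark the 4-fold threshold. FOSL1 is at 5.09 and 5.02, and FOS, JUN and JUNB are below 0 on both axes.

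The transcripts of the members were compared for features that the choice of genes did not use. The most C-rich whole transcripts were JUND with 36.1% C, FOSL1 with 34.5% and JUNB with 33.8%, against a median of 24.1% over 10531 protein-coding genes. Runs of at least 4 C occurred 12.0 times per kilobase in FOSL1 and 13.2 times in FOSB, against a median of 3.52. They occurred 15.03 times per kilobase in JUND and 10.99 times in JUNB, both below the threshold of 2 with hnRNPK. FOS had 5.10 such runs per kilobase, JUN 5.08 and FOSL2 6.71. Across the protein-coding genes, those above 2 with hnRNPK had a median of 8.63 such runs per kilobase (743 genes) and the rest 3.29. Those above 2 with CBFB had 10.5 (375 genes) and the rest 3.37. Across genes, which share the same libraries, the Spearman rho of these runs per kilobase with enrichment was 0.24 for hnRNPK and 0.22 for CBFB. For transcript length the rho was 0.30 for hnRNPK and -0.30 for CBFB, so length went opposite ways in the RIPs.

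The 3′ UTRs differed more. That of FOS held no run of 4 C, that of JUN 5, that of FOSL1 5, and those of FOSB and FOSL2 28 each. Per kilobase of 3′ UTR these are 0 in FOS, 3.88 in JUN, 5.76 in FOSL2, 7.51 in FOSL1 and 12.9 in FOSB. JUND had 20.6 and JUNB a value between those of FOSB and JUND. JUN, JUNB and JUND are single-exon genes, as were 1.74% of the protein-coding genes analysed, and the FOS genes have 4 exons in these transcripts. FOSL1 has the shortest of the 7 transcripts, at 1669 bases, and FOSL2 the longest, at 6708.

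The genes most like FOSL1 were those at the smallest Euclidean distance over its 3 enrichments among 11465 genes. SF3B4, a splicing factor subunit, was nearest at 0.109, with 5.16 with CBFB and 5.00 ± 0.21 (SD, n = 2) with hnRNPK. The next were the antisense RNA VPS9D1-AS1 at 0.302, the pseudogene transcript TPTEP1 at 0.348, SORBS3, an adaptor of cell adhesion, at 0.407 and the long non-coding RNA LINC02870 at 0.481. None of the 6 AP-1 relatives was among them, which follows from their lower enrichments given above and adds nothing to them.

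Other proteins with a basic region and a leucine zipper, listed as bZIP partners, had 13 of 17 genes analysed. None passed 2 with CBFB and 1 did with hnRNPK, beside 4.37% and 8.2% of all analysed genes. The list medians were -0.40 and -0.09, against -0.19 and -0.11 over all analysed genes. By edgeR's quasi-likelihood test, 3 of 13 were higher in the hnRNPK RIP and 1 lower, beside 21.9% higher and 15.8% lower over all genes tested. The number lower was 5 by limma on centred FPKM and 0 by DESeq2. ATF3, a stress-induced partner of JUN, was highest with CBFB at 1.87, from 1.46 FPKM in the input and 2.55 in the RIP. BATF3 followed at 0.86. NFE2L1 at -1.55 and CREB1, the cAMP-responsive factor, at -1.14 were lowest.

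The kinases and factors upstream of AP-1 (MAPK input) had all 18 genes analysed. In each RIP 1 was above 2, beside 4.37% of all analysed genes with CBFB and 8.2% with hnRNPK. The list medians were -0.45 with CBFB and -0.14 with hnRNPK. By edgeR's test, 7 of 18 were higher in the hnRNPK RIP and 0 lower (2 at an unadjusted p under 0.05, 0 by DESeq2 and 8 by limma on centred FPKM), beside the same 21.9% and 15.8%, while 10 of the 18 were below 0 in centred hnRNPK enrichment. MAPK7, the kinase ERK5, was at 2.94 with CBFB and 3.38 ± 0.26 (SD, n = 2) with hnRNPK. MAPK3, the kinase ERK1, was at 1.09 with CBFB and 1.83 ± 0.36 with hnRNPK. EGFR, the EGF receptor, was below 0 with CBFB at -1.04 and above 0 with hnRNPK at 1.25 ± 0.21.

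Of 17 known AP-1 target genes, 12 were analysed. With CBFB 1 was above 2 and with hnRNPK 2 were, beside 4.37% and 8.2% of all analysed genes. The list medians were -0.56 and -0.74. By edgeR's test, 4 of 12 were higher and 2 lower, beside 21.9% and 15.8% over all genes tested. The number lower was 7 by limma and 0 by DESeq2. HMGA1, a chromatin protein, was at 3.32 with CBFB and 3.07 ± 0.17 (SD, n = 2) with hnRNPK. VIM, the mesenchymal filament protein vimentin, was at 1.23 with CBFB and at -1.30 and -1.29 in the hnRNPK repeats, where edgeR's quasi-likelihood test called it lower (adjusted p = 0.0346). Its inputs differed widely, with 5.89 FPKM in FLAG-CBFB cells and 36.3 in parental cells. MMP14, a membrane metalloproteinase, was at -1.17 and ITGA6, an integrin chain, at -1.20 with CBFB.

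Of 13 other immediate early genes, 12 were analysed. In each RIP 3 passed 2, beside 4.37% of all analysed genes with CBFB and 8.2% with hnRNPK. The list medians were 0.27 with CBFB and -0.30 with hnRNPK. By edgeR's test, 5 of 12 were higher and 1 lower, beside 21.9% and 15.8% over all genes tested. The number lower was 4 by limma and 1 by DESeq2. ZFP36, which destabilises AU-rich mRNAs, was at 3.93 with CBFB and 4.10 ± 0.55 (SD, n = 2) with hnRNPK. EGR1, a zinc finger factor, was at 3.69 with CBFB and 5.05 ± 1.06 with hnRNPK. MYC at -0.75 and IER2 at -0.57 were the lowest with CBFB. The immediate early genes thus lay on both sides of 0, as the AP-1 members did.

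**Figure D5:**
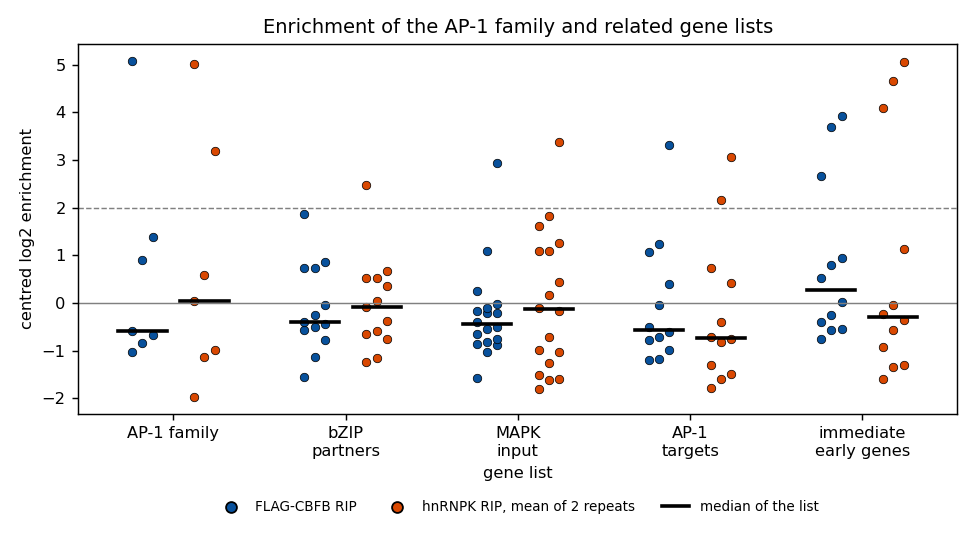
Centred log2 enrichment (y axis) of the analysed genes of the AP-1 family and 4 related gene lists (x axis); each point is a gene, blue for the FLAG-CBFB RIP and orange for the mean of 2 hnRNPK RIP repeats, black bars are list medians, and the dashed line is the 4-fold threshold. Every list median lies between -0.74 and 0.27, and each list has single genes well above it.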

How the data were processed

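Each of the 5 libraries had 1 deposited table. Per the labels, Trizol extraction and column cleanup preceded a TruSeq mRNA library kit. The submitters' processing notes name Trimmomatic, STAR, RSEM and hg19, with no versions. The authors' expected counts are RSEM's estimated counts per gene, which share out reads that match several transcripts. The deposited FPKM and TPM values are those estimates per transcript length and library. The authors' transcript length columns and a few hand-written symbols were not used for results. Samples were grouped by title.

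Gene identifiers were named through a gene name table and GENCODE release 29 (GRCh38) for 50759 of 56632, and coordinates and transcripts are from that release. Enrichment was log2(FPKM + 1) of the RIP minus its own input, centred on the mean over the analysed genes (mean FPKM 1 or more). For the hnRNPK RIP, expected counts were rounded and tested with edgeR 4.0.16 (quasi-likelihood, TMM, filterByExpr, Benjamini-Hochberg 0.05), with DESeq2 1.42.0 and limma 3.58.1 as alternatives. The scripts were tested on simulated data. Libraries held 69786576 to 106855647 expected counts. Reads had no molecular identifiers that were used, so Wilson intervals cover counting error only.

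The 7 members and the 4 related lists were chosen with earlier results of these data known. The genes named are the members, RUNX1, GAPDH, the 2 highest and 2 lowest of each list with CBFB among those with at least 50 counts in the FLAG-CBFB libraries, and the 5 genes most like FOSL1 with at least 50 counts in each input. Overlapping genes and EGR3 were added after their values were seen. One gene that this rule names is not reported here.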

Additional observations from a re-analysis of the deposited data

Results flagged for a closer look

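FOSL2 was below the average gene in the FLAG-CBFB RIP and above it in both hnRNPK RIP repeats, at -0.83 against 0.79 and 0.37. The CBFB enrichment minus the mean hnRNPK enrichment was -1.41. With 1 library of the FLAG-CBFB RIP, this difference was not tested. In FPKM, FOSL2 was lower in every RIP than in its input, and against the opposite input its mean hnRNPK enrichment was -0.23. The part of the inputs, which differed by 0.81 for FOSL2, was not tested.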

How the results depend on the processing

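No paired analysis was possible because each input, and the FLAG-CBFB RIP, is 1 library. FOSL1 minus the median of its relatives kept its direction under every alternative. With CBFB (5.71) it was 5.90 with a pseudocount of 0.1, 5.90 with log2 CPM on TMM factors and 5.90 on DESeq2 size factors, and 4.42 against the opposite input. With hnRNPK (5.46) these were 5.90, 5.90, 5.90 and 6.39, and it was 5.85 with FPKM rescaled without mitochondrial genes and 5.31 to 5.62 with each repeat left out. With a threshold of 1, 2 members passed with CBFB, FOSB being the second. Without centring, or with all genes in the centring, only 1 passed with hnRNPK, FOSL1, and with either repeat left out 2 passed. The number of members higher in the hnRNPK RIP was 2 with limma, and the number lower was 0 with DESeq2, where FOS and JUN had unadjusted p of 0.0279 and 0.0182. Of all calls, 58.2% were higher with edgeR (6271 calls), 49.2% without a filter on low counts (6771), 70.7% with DESeq2 (4643) and 47.3% with limma (8402), and JUND was not called without that filter (adjusted p = 0.116). JUNB was called lower with limma alone (adjusted p = 0.00725). FOSL1's share by expected counts was 4.64% (FLAG-CBFB input), 8.95% (parental input), 70.9% with CBFB, and 66.5% and 82.2% with hnRNPK. The sign changed for FOSL2 with hnRNPK under 3 of 11 alternatives, and for JUND under 3 of 9 with CBFB and 3 of 11 with hnRNPK. For alternatives that moved a value, the cause was not tested. The comparisons are limited by 1 FLAG-CBFB RIP, 1 input per cell type and no mock immunoprecipitation analysed here.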

Other observations

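The spread of FOSB between the hnRNPK repeats was shared by some immediate early genes and not by others. EGR1 had 537 FPKM in repeat 1 and 181 in repeat 2, with enrichments of 5.80 and 4.30. EGR3, chosen after its values were seen, had enrichments of 5.52 and 3.80, with only 0.66 FPKM in the parental input. ATF3 had 0.99 and 0.04, but was weak in the repeats, at 1.57 and 0.27 FPKM beside the pseudocount of 1. IER2, at -1.53 and -1.06, differed the other way. FOS, at -2.05 and -1.89, differed little, and 49.4% of the analysed genes had a larger difference between the repeats. FOSL1, at 4.92 and 5.12, differed by less than the SD of the repeat difference over all analysed genes, which was 0.35. These values were not tested.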
